A study of Mus musculus with 15 samples.

Results

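Interferon-stimulated genes (ISGs) are genes whose transcription rises when a cell senses an interferon, and their levels in the resting small intestine are described here across dendritic cells (DCs) and macrophages (mϕ). The list held 41 ISGs given by name. Of these, 35 had a probeset (the group of probes that measures 1 gene) that the annotation of the array assigns to that gene alone, out of 19938 such genes in all. Isg15, Ifi204, Gbp2, Ifi47 and Igtp are listed only on probesets that they share with another gene, and Ifi44 was not listed, so these 6 are named without values.

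RNA was measured on 15 Affymetrix Mouse Gene ST arrays, 3 for each of 5 populations sorted from the small intestinal lamina propria (LP) of healthy wild-type C57BL/6 mice. These were CD64+ mϕ and 4 DC subsets that lacked CD64 and were divided by the integrins CD103 and CD11b into a CD103-CD11b- subset, a CD103+CD11b+ subset, a CD103-CD11b+ subset and a CD103+CD11b- subset. No mouse was treated or carried a transgene. The replicates of a population are described as biological, but how many mice each array stands for is not given, so the p-values below measure the spread between these arrays.

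Each value is a log2 signal after Robust Multi-array Average (RMA) processing, and 1 unit is a doubling of signal. The 12 measured mϕ markers averaged 10.31 to 10.45 in CD64+ mϕ, 6.46 to 6.92 in CD103-CD11b+ DCs and at most 6.26 on any array of the other DCs. The 5 markers of type 1 conventional DCs averaged 10.51 to 10.80 in CD103+CD11b- DCs and 8.44 to 8.98 in CD103-CD11b- DCs. On the arrays of the other populations they averaged at most 7.56. CD103-CD11b- DCs had means of 7.49 to 7.71 over 9 plasmacytoid DC markers, against at most 6.81 on the arrays of the other populations. Over 7 B and plasma cell markers they had 8.68 to 9.37, which overlapped CD64+ mϕ (7.84 to 8.70), against at most 8.31 in the other DCs. Signal of pancreatic acinar genes was highest on replicate 2 of each population except CD103-CD11b+ DCs, where it was highest on replicate 3. It reached 8.70 on average in replicate 2 of CD103+CD11b- DCs, and calls lost without these 5 arrays are given with the results. In bulk samples of sorted cells, fewer cells of a type and less RNA per cell cannot be told apart.

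Type I interferons bind the receptor IFNAR and act through the kinases JAK1 and TYK2 on the transcription factor complex ISGF3, which holds STAT2 and IRF9. ISGF3 binds the interferon-stimulated response element (ISRE) in the promoters of ISGs, whereas interferon-γ acts mainly at the γ-activated sequence (GAS). The proteins made restrict viruses and intracellular microbes, and low-level interferon signalling is known to keep many ISGs expressed in healthy tissue.

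Promoters were taken from RefSeq (mouse build GRCm38.p6) as windows from 250 bases before to 50 bases after the start of a gene, and 30 of the 41 listed genes had a window. The ISRE core GAAANNGAAA, or its reverse complement TTTCNNTTTC, stood in the promoters of 17 of these 30 genes. By windows, it stood in 18 of the 35 windows of these genes and in 3.44% of all 32851 windows. The GAS motif TTCNNNGAA, which reads the same on both strands, stood in the promoters of 8 of the 30 genes (Bst2, Gbp5, Gbp7, Ifi35, Ifit2, Igtp, Isg20 and Oas1a). By windows, it stood in 8 of their 35 windows and in 8.3% of all windows. Overlapping matches were allowed, and a match is a description of the letters and not of a bound site. Stretches around the ISRE core are printed for 6 members called in the pairwise comparisons, 4 that were higher in both CD11b+ subsets than in CD103+CD11b- DCs and 2, Ifi205 and Trim30a, that were lower in CD103+CD11b+ than in CD103+CD11b- DCs. Capitals mark the ISRE core in either orientation. For Ifi205 alone, only the match farthest before the start of the gene was kept for printing, so its stretch does not give the number of matches.
Gbp7 (chr3:142530263-142530312, plus strand): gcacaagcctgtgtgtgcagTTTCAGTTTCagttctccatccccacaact
Gbp3 (chr3:142559979-142560034, plus strand): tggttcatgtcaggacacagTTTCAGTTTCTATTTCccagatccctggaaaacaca
Ifit3 (chr19:34583353-34583436, plus strand): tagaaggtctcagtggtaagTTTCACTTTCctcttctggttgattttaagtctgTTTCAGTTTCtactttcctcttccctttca
Oas1a (chr5:120907526-120907565, minus strand): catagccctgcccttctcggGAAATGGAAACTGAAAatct
Ifi205 (chr1:174031860-174031909, minus strand): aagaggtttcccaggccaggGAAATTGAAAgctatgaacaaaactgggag
Trim30a (chr7:104465200-104465249, minus strand): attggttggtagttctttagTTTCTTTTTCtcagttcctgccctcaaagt
Among the 12 members that were higher in at least 1 of both CD11b+ DC subsets than in CD103+CD11b- DCs (by the pairwise comparisons), 9 had a window and 5 of these held the core (Gbp3, Gbp7, Ifih1, Ifit3 and Oas1a), whereas Isg20, Oasl2, Trim25 and Xaf1 did not. Of the 3 members that were lower there, Ifi205 and Trim30a held it and Oasl1 did not. Of the other 20 measured members, 13 had a window and 7 of these held the core (Bst2, Gbp5, Ifit1, Irgm1, Oas3, Rsad2 and Stat2).

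ISG levels differed widely among the 5 populations. A member was counted as varying when its adjusted p (limma's F over all 15 arrays, Benjamini-Hochberg over all genes) was under 0.01 and its population means spanned more than 1 log2 unit. By this rule 28 of 35 members varied, against 10.7% of all genes, and the median range of population means was 1.57 for the members and 0.28 over all genes. The 7 that did not pass were Mx2, Cmpk2, Usp18, Stat2, Parp9, Dtx3l and Irgm1, with ranges between 0.57 and 1.09. CD64+ mϕ had the highest mean of the 5 populations for 28 of 35 members, against 26.4% of all genes. CD103+CD11b- DCs had the lowest mean for 17 members, against 30.7% of all genes. Within the DCs, 17 members were highest in CD103-CD11b+ DCs (29% of all genes), 10 in the CD103+CD11b- subset (23%), 5 in the CD103+CD11b+ subset (25.8%) and 3 in the CD103-CD11b- subset (22.1%).

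**Figure D1:**
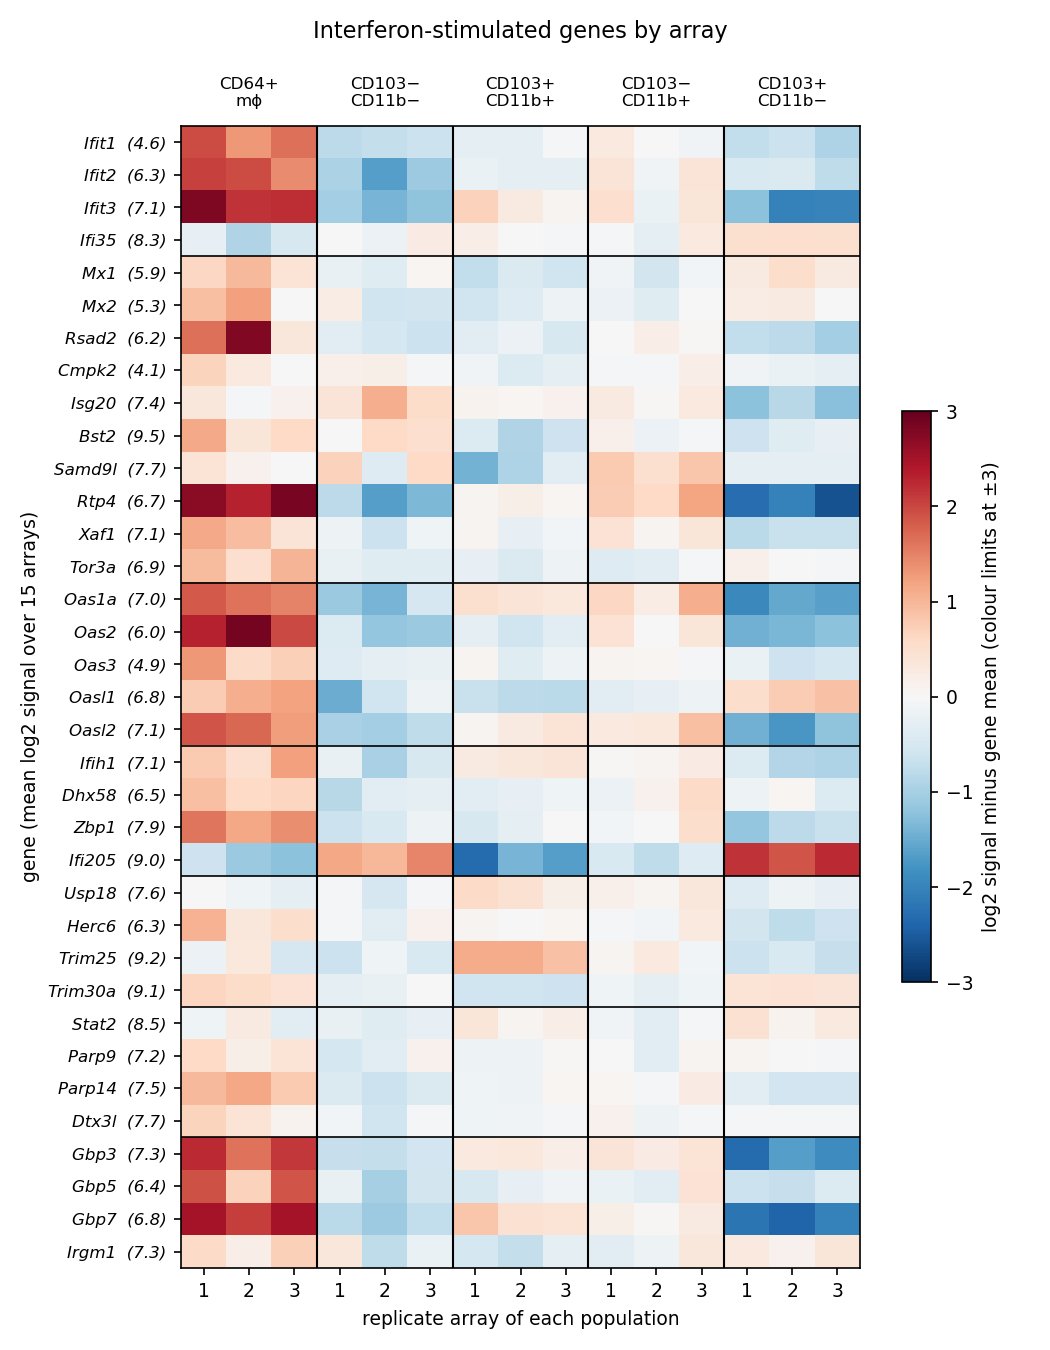
Log2 signal of each of the 35 measured ISGs on each array minus the mean of that gene over 15 arrays (colour, limits at 3 log2 units either side of 0), with genes down the page grouped by role, their mean log2 signal in brackets, and the 3 arrays of each population side by side. Most rows are reddest in CD64+ mϕ, and Ifi205 is reddest in CD103+CD11b- DCs (11.19, 10.91 and 11.28).

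The IFIT proteins bind foreign RNA and block its translation, and all 4 measured members of the IFIT and IFI group varied. Ifit3 had log2 signals of 9.93, 9.30 and 9.33 in CD64+ mϕ, 6.11, 5.73 and 5.91 in the CD103-CD11b- subset, 7.81, 7.39 and 7.20 in the CD103+CD11b+ subset, 7.62, 6.91 and 7.48 in the CD103-CD11b+ subset and 5.90, 5.11 and 5.13 in the CD103+CD11b- subset. CD64+ mϕ were above all other arrays, both CD11b+ subsets came next and overlapped each other, and CD103+CD11b- DCs overlapped CD103-CD11b- DCs at the low end. Ifit2 measured 8.37, 8.27 and 7.74 in CD64+ mϕ, 5.37, 4.67 and 5.24 in the CD103-CD11b- subset, 6.13, 6.03 and 6.06 in the CD103+CD11b+ subset, 6.71, 6.23 and 6.70 in the CD103-CD11b+ subset and 5.87, 5.88 and 5.56 in the CD103+CD11b- subset. Here CD103-CD11b- DCs were lowest, with no overlap with any other population. Ifit1 had log2 signals of 6.54, 5.90 and 6.25 in CD64+ mϕ, 3.80, 3.87 and 3.96 in the CD103-CD11b- subset, 4.30, 4.31 and 4.53 in the CD103+CD11b+ subset, 4.88, 4.58 and 4.49 in the CD103-CD11b+ subset and 3.86, 3.95 and 3.67 in the CD103+CD11b- subset. On every DC array except replicate 1 of CD103-CD11b+ DCs, Ifit1 lay below the array medians of 4.74 to 4.86, a range in which signal and background are hard to separate. The same held for 1 of 3 arrays of Ifit2 in CD103-CD11b- DCs. It also held for all 3 arrays of Rtp4 and for 2 of 3 arrays each of Gbp7 and Oas2 in CD103+CD11b- DCs, so the size of differences against these levels is uncertain. Ifi35, which binds its partner NMI, went another way, with means of 7.78 in CD64+ mϕ and 8.81 in CD103+CD11b- DCs (log2 difference -1.04, SE 0.16, adjusted p = 0.00022). That call was lost without replicate 2 of CD64+ mϕ (-0.86), without the 5 acinar-rich arrays (-0.86) and with cyclic loess normalization (-0.89). In each of these settings, and without replicate 2 or 3 of CD103+CD11b- DCs, Ifi35 did not pass the test of variation either (ranges of 0.86 to 1.04).

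Among the antiviral effectors, Rtp4, a receptor transporter protein with antiviral activity, had the widest range of all members. Rtp4 measured 9.36, 8.97 and 9.52 in CD64+ mϕ, 5.87, 5.02 and 5.32 in the CD103-CD11b- subset, 6.74, 6.84 and 6.71 in the CD103+CD11b+ subset, 7.43, 7.26 and 7.84 in the CD103-CD11b+ subset and 4.38, 4.64 and 4.05 in the CD103+CD11b- subset. All 5 populations were separate on the arrays, in the order CD64+ mϕ, the CD103-CD11b+ subset, the CD103+CD11b+ subset, the CD103-CD11b- subset and the CD103+CD11b- subset. Rsad2 had log2 signals of 7.86, 9.01 and 6.56 in CD64+ mϕ, 5.90, 5.70 and 5.59 in the CD103-CD11b- subset, 5.91, 6.05 and 5.75 in the CD103+CD11b+ subset, 6.22, 6.42 and 6.26 in the CD103-CD11b+ subset and 5.47, 5.44 and 5.20 in the CD103+CD11b- subset. Rsad2 encodes viperin, a radical SAM enzyme that blocks viral RNA synthesis, and its 3 mϕ arrays were the least alike of any member in any population (SD 1.23), although all 3 were above every DC array. Isg20 measured 7.80, 7.38 and 7.57 in CD64+ mϕ, 7.83, 8.55 and 7.99 in the CD103-CD11b- subset, 7.55, 7.51 and 7.57 in the CD103+CD11b+ subset, 7.72, 7.48 and 7.74 in the CD103-CD11b+ subset and 6.21, 6.62 and 6.18 in the CD103+CD11b- subset. Isg20, an exonuclease that degrades viral RNA, was the 1 member with its highest mean in CD103-CD11b- DCs, and its CD103+CD11b- arrays were below all others.

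The other effectors had smaller ranges. Bst2, or tetherin, which holds budding virions at the cell surface and is itself a plasmacytoid DC marker, had its highest mean, 10.22, in CD64+ mϕ and the next, 9.89, in CD103-CD11b- DCs, and these overlapped. Samd9l, a restriction factor of poxviruses, was highest in CD103-CD11b+ DCs (8.47, 8.17 and 8.52) and lowest in CD103+CD11b+ DCs (6.27, 6.78 and 7.39). It no longer passed the test of variation without replicate 1 or 2 of CD103+CD11b+ DCs, without replicate 1 or 3 of CD103-CD11b+ DCs or without the acinar-rich arrays (ranges of 1.30 to 1.56), and neither did Rsad2 without the acinar-rich arrays (1.88). Xaf1, a binding partner of the apoptosis inhibitor XIAP, ranged over 1.53 and was highest in CD64+ mϕ and lowest in CD103+CD11b- DCs. Mx1, a dynamin-like GTPase known to be truncated in C57BL/6 mice, and the ATPase Tor3a had ranges of 1.26 and 1.15, with mϕ highest and CD103+CD11b- DCs the highest of the DCs. Mx2, the related GTPase, had an adjusted p of 0.0277, and Cmpk2, a mitochondrial nucleotide kinase, lay between 3.68 and 4.76 on all arrays and did not pass.

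OAS enzymes make 2′-5′ oligoadenylates, which switch on the RNA-cutting enzyme RNase L, and all 5 measured members of this family varied. Oas2 had log2 signals of 8.33, 8.89 and 7.99 in CD64+ mϕ, 5.59, 4.86 and 4.89 in the CD103-CD11b- subset, 5.71, 5.42 and 5.67 in the CD103+CD11b+ subset, 6.46, 6.03 and 6.37 in the CD103-CD11b+ subset and 4.58, 4.63 and 4.79 in the CD103+CD11b- subset. Oas1a measured 8.82, 8.62 and 8.48 in CD64+ mϕ, 5.88, 5.58 and 6.48 in the CD103-CD11b- subset, 7.47, 7.38 and 7.31 in the CD103+CD11b+ subset, 7.61, 7.21 and 8.08 in the CD103-CD11b+ subset and 5.05, 5.44 and 5.37 in the CD103+CD11b- subset. Oasl2 had log2 signals of 8.99, 8.83 and 8.36 in CD64+ mϕ, 6.14, 6.09 and 6.33 in the CD103-CD11b- subset, 7.19, 7.36 and 7.50 in the CD103+CD11b+ subset, 7.39, 7.42 and 8.0 in the CD103-CD11b+ subset and 5.67, 5.36 and 5.88 in the CD103+CD11b- subset. In all 3 genes CD64+ mϕ were above every DC array and CD103+CD11b- DCs were below every other array, and both CD11b+ subsets were above CD103-CD11b- DCs for Oas1a and Oasl2 while Oas2 overlapped between CD103-CD11b- and CD103+CD11b+ DCs. Oas3 was dim, with mϕ at 6.22, 5.51 and 5.63 and all DC arrays between 4.30 and 5.00. Oasl1, a member without synthetase activity that is known in mice to restrain translation of Irf7, had another order among the DCs. Oasl1 measured 7.57, 7.88 and 7.99 in CD64+ mϕ, 5.32, 6.20 and 6.64 in the CD103-CD11b- subset, 6.12, 6.02 and 6.0 in the CD103+CD11b+ subset, 6.48, 6.55 and 6.64 in the CD103-CD11b+ subset and 7.33, 7.56 and 7.68 in the CD103+CD11b- subset. CD103+CD11b- DCs were above all other DCs and overlapped CD64+ mϕ, and CD103-CD11b- DCs had a wide spread (SD 0.67). Oas1a has close copies in the mouse genome that its probes may also bind, so its values are uncertain in that respect, and the same holds for Ifit3, the Gbp genes, Trim30a and Ifi205.

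The sensors were less alike than the OAS family. Ifi205 had log2 signals of 8.42, 7.93 and 7.81 in CD64+ mϕ, 10.21, 10.04 and 10.50 in the CD103-CD11b- subset, 6.72, 7.65 and 7.37 in the CD103+CD11b+ subset, 8.59, 8.27 and 8.64 in the CD103-CD11b+ subset and 11.19, 10.91 and 11.28 in the CD103+CD11b- subset. Ifi205, a member of the PYHIN family of DNA-binding proteins, was highest in CD103+CD11b- DCs, next in CD103-CD11b- DCs and lowest in CD103+CD11b+ DCs, and the last of these overlapped no other population. Zbp1 measured 9.49, 9.03 and 9.26 in CD64+ mϕ, 7.24, 7.42 and 7.73 in the CD103-CD11b- subset, 7.40, 7.59 and 7.90 in the CD103+CD11b+ subset, 7.79, 7.88 and 8.41 in the CD103-CD11b+ subset and 6.71, 7.10 and 7.22 in the CD103+CD11b- subset. Zbp1, which binds Z-form nucleic acids and can start necroptosis, was higher in CD64+ mϕ than on any DC array, and among the DCs the CD103+CD11b+ subset overlapped both CD103- subsets while the CD103+CD11b- subset was lowest. Ifih1 had log2 signals of 7.90, 7.64 and 8.35 in CD64+ mϕ, 6.90, 6.15 and 6.63 in the CD103-CD11b- subset, 7.40, 7.46 and 7.51 in the CD103+CD11b+ subset, 7.16, 7.21 and 7.37 in the CD103-CD11b+ subset and 6.71, 6.24 and 6.20 in the CD103+CD11b- subset. Ifih1 encodes MDA5, the receptor for long double-stranded RNA, and CD103+CD11b+ DCs were above all other DC arrays. Dhx58, which encodes the related protein LGP2, had means of 7.22 in CD64+ mϕ and 6.03 in CD103-CD11b- DCs, its highest and lowest.

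Of the ISG15 and TRIM group, 3 of 4 measured members varied. ISG15 is a ubiquitin-like protein that HERC6 attaches and USP18 removes in mice. Trim25 measured 9.08, 9.58 and 8.74 in CD64+ mϕ, 8.60, 9.13 and 8.79 in the CD103-CD11b- subset, 10.36, 10.35 and 10.13 in the CD103+CD11b+ subset, 9.34, 9.53 and 9.16 in the CD103-CD11b+ subset and 8.60, 8.79 and 8.56 in the CD103+CD11b- subset. Trim25, the ubiquitin ligase that acts on the RNA sensor RIG-I, was the 1 varying member with its highest mean in CD103+CD11b+ DCs, and its 3 arrays there were above all 12 others. Herc6 had log2 signals of 7.38, 6.68 and 6.86 in CD64+ mϕ, 6.29, 6.01 and 6.46 in the CD103-CD11b- subset, 6.41, 6.32 and 6.39 in the CD103+CD11b+ subset, 6.30, 6.24 and 6.62 in the CD103-CD11b+ subset and 5.78, 5.57 and 5.70 in the CD103+CD11b- subset. CD103+CD11b- DCs were below all other arrays for Herc6, and CD64+ mϕ were above. Trim30a measured 9.79, 9.69 and 9.57 in CD64+ mϕ, 8.84, 8.92 and 9.15 in the CD103-CD11b- subset, 8.53, 8.54 and 8.52 in the CD103+CD11b+ subset, 9.01, 8.85 and 9.0 in the CD103-CD11b+ subset and 9.54, 9.57 and 9.52 in the CD103+CD11b- subset. Trim30a, a TRIM protein known in mice to restrain Toll-like receptor signals, was high in CD64+ mϕ and CD103+CD11b- DCs and lowest in CD103+CD11b+ DCs, where the arrays were nearly alike (SD 0.01). Usp18 had its highest mean in CD103+CD11b+ DCs (8.17, 8.06 and 7.79) and its lowest in CD103+CD11b- DCs (7.22, 7.46 and 7.35), a range of 0.66 that did not reach the threshold.

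The STAT2 and PARP group moved least, with 1 of 4 members varying. Parp14 had log2 signals of 8.48, 8.66 and 8.30 in CD64+ mϕ, 7.08, 6.86 and 7.07 in the CD103-CD11b- subset, 7.39, 7.35 and 7.57 in the CD103+CD11b+ subset, 7.55, 7.44 and 7.76 in the CD103-CD11b+ subset and 7.19, 6.93 and 6.93 in the CD103+CD11b- subset. Parp14, a mono-ADP-ribosyltransferase, was higher in CD64+ mϕ than on all DC arrays. Dtx3l and Parp9, which form a ubiquitin ligase complex, both ranged over 0.63, with adjusted p of 0.037 and 0.0471. Dtx3l measured 8.34, 8.11 and 7.79 in CD64+ mϕ, 7.61, 7.09 and 7.64 in the CD103-CD11b- subset, 7.55, 7.57 and 7.66 in the CD103+CD11b+ subset, 7.82, 7.53 and 7.65 in the CD103-CD11b+ subset and 7.66, 7.64 and 7.62 in the CD103+CD11b- subset. Parp9 had log2 signals of 7.78, 7.36 and 7.60 in CD64+ mϕ, 6.66, 6.87 and 7.31 in the CD103-CD11b- subset, 7.03, 7.03 and 7.22 in the CD103+CD11b+ subset, 7.17, 6.84 and 7.27 in the CD103-CD11b+ subset and 7.26, 7.17 and 7.13 in the CD103+CD11b- subset. Their DC subsets overlapped throughout. Stat2, the ISGF3 subunit, ranged over 0.57 (adjusted p = 0.0205), and its population means were all close to its overall mean of 8.47.

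The guanylate-binding proteins (GBPs) and the immunity-related GTPases (IRGs) attack the membranes of vacuoles that hold microbes, and they are induced above all by interferon-γ. Gbp7 measured 9.33, 8.89 and 9.32 in CD64+ mϕ, 6.02, 5.73 and 6.10 in the CD103-CD11b- subset, 7.67, 7.29 and 7.24 in the CD103+CD11b+ subset, 7.01, 6.85 and 7.09 in the CD103-CD11b+ subset and 4.63, 4.44 and 4.81 in the CD103+CD11b- subset. Gbp3 had log2 signals of 9.52, 8.91 and 9.41 in CD64+ mϕ, 6.58, 6.56 and 6.72 in the CD103-CD11b- subset, 7.58, 7.59 and 7.48 in the CD103+CD11b+ subset, 7.66, 7.52 and 7.69 in the CD103-CD11b+ subset and 4.97, 5.63 and 5.39 in the CD103+CD11b- subset. CD64+ mϕ were highest for both genes, both CD11b+ subsets followed, CD103-CD11b- DCs came next and CD103+CD11b- DCs were below all other arrays. Between the CD11b+ subsets, Gbp7 was higher on all CD103+CD11b+ arrays and Gbp3 overlapped. Gbp5 measured 8.29, 7.07 and 8.28 in CD64+ mϕ, 6.16, 5.39 and 5.85 in the CD103-CD11b- subset, 5.90, 6.13 and 6.29 in the CD103+CD11b+ subset, 6.18, 6.05 and 6.82 in the CD103-CD11b+ subset and 5.74, 5.69 and 5.97 in the CD103+CD11b- subset. Gbp5, known for its part in inflammasome assembly, was higher in CD64+ mϕ than on any DC array, and the DC subsets overlapped, except CD103-CD11b+ with CD103+CD11b- DCs. Irgm1, a regulator of the other IRGs, had a range of 1.0 and an adjusted p of 0.03.

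**Figure D2:**
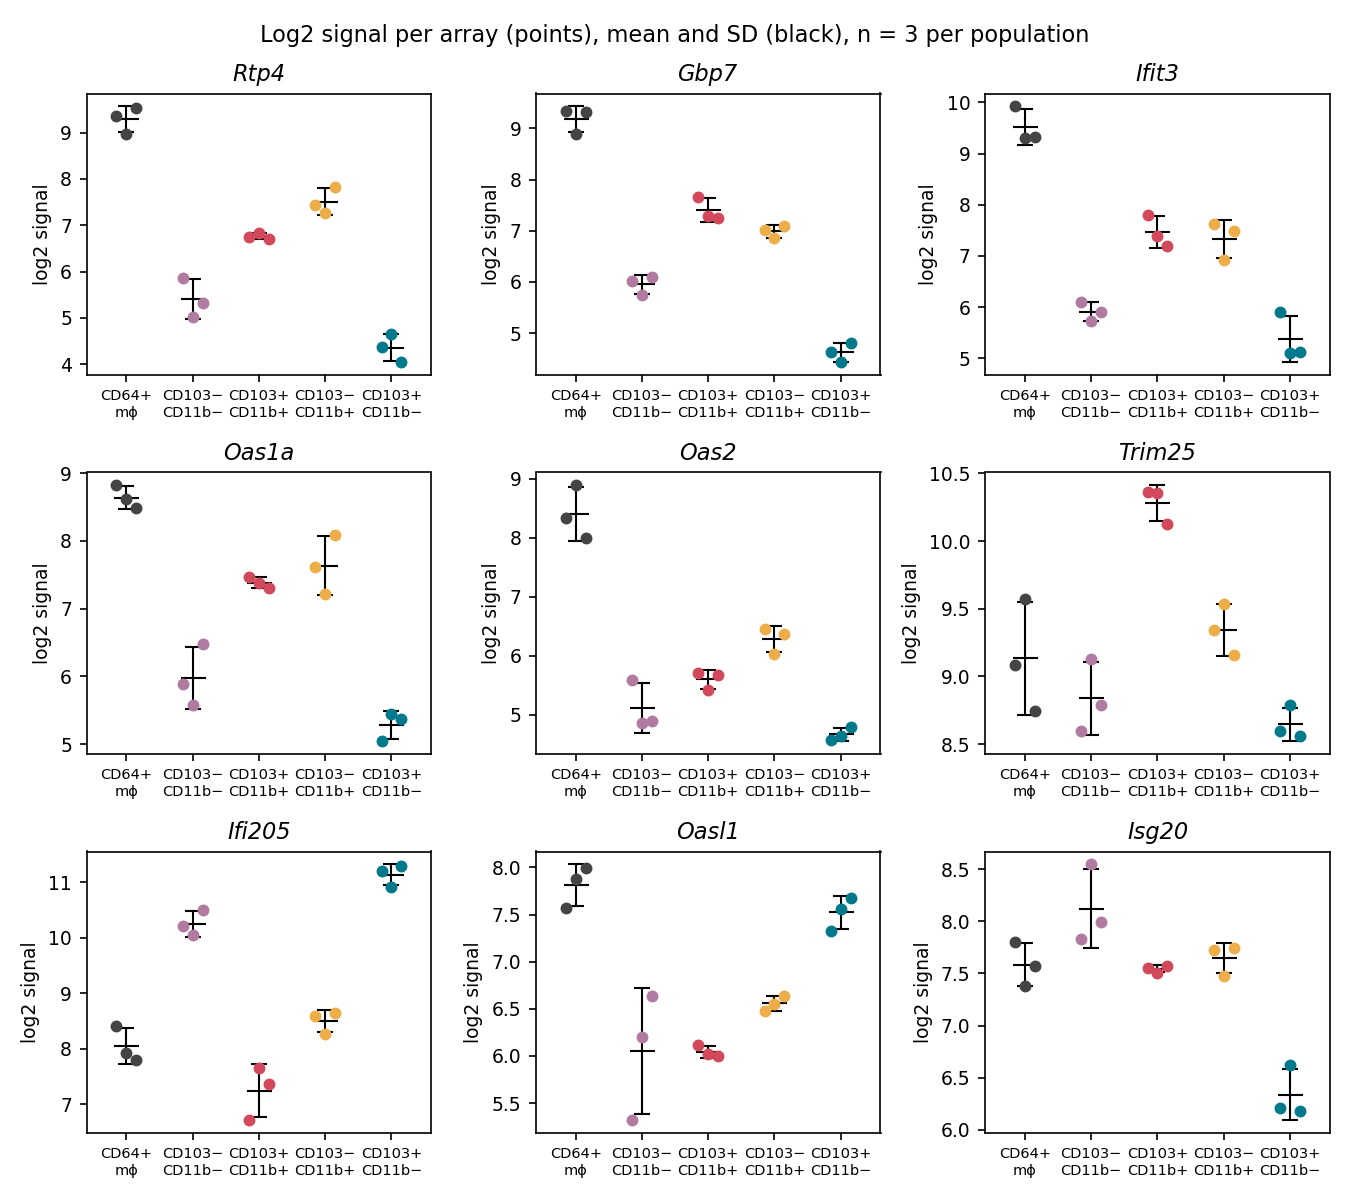
Log2 signal of 9 ISGs on each array (points), with the mean and SD of the 3 arrays of each population in black and each panel on its own axis. Rtp4, Gbp7, Ifit3, Oas1a and Oas2 are highest in CD64+ mϕ and lowest in CD103+CD11b- DCs, Trim25 is highest in CD103+CD11b+ DCs, Ifi205 in CD103+CD11b- DCs and Isg20 in CD103-CD11b- DCs, and Oasl1 is as high in CD103+CD11b- DCs as in mϕ.

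The populations were next compared in pairs, to ask which ISGs separate the DC subsets from one another and from mϕ. A gene was called when its log2 difference was over 1 in either direction at an adjusted p under 0.01 (limma, Benjamini-Hochberg over all 19938 genes). Comparisons among the subsets with CD103, CD11b or both used their 9 arrays, and all others used the 15 arrays. Several comparisons share arrays, so their values are given side by side and not as independent evidence of each other.

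Against CD103+CD11b- DCs, CD103+CD11b+ DCs had 9 of 35 members higher, against 1.95% of all genes, and 3 lower, against 1.32%. The largest differences were those of Gbp7 (2.77, SE 0.13, adjusted p = 1.7e-07), Rtp4 (2.41, SE 0.16, adjusted p = 2.2e-06), Gbp3 (2.22, SE 0.14, adjusted p = 1.3e-06), Oas1a (2.10, SE 0.18, adjusted p = 1.6e-05) and Ifit3 (2.09, SE 0.24, adjusted p = 0.00013). Oasl2, Trim25, Isg20 and Ifih1 rose by 1.71, 1.64, 1.20 and 1.07. The 3 lower members were Ifi205 (-3.88, SE 0.20, adjusted p = 3.3e-07), Oasl1 (-1.48, SE 0.10) and Trim30a (-1.01, SE 0.08), which is just past the threshold and was no longer called without replicate 2 of CD103+CD11b- DCs (-1.0) or with cyclic loess normalization (-0.95). Ifih1 was not called without replicate 3 of CD103+CD11b- DCs (0.98) or without the acinar-rich arrays (1.0, adjusted p = 0.01). The median difference of the members was 0.31, against 0.03 over all genes.

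CD103-CD11b+ DCs had 10 members higher than CD103+CD11b- DCs, against 2.02% of all genes, and 1 lower, against 1.3%. Rtp4 differed most (3.16, SE 0.16, adjusted p = 3e-07), followed by Gbp7 (2.36, SE 0.13), Oas1a (2.35, SE 0.18), Gbp3 (2.29, SE 0.14), Oasl2 (1.97, SE 0.18), Ifit3 (1.96, SE 0.24) and Oas2 (1.62, SE 0.13). Isg20, Zbp1 and Xaf1 rose by 1.31, 1.02 and 1.0. The call for Zbp1 was lost without replicate 1 of CD103+CD11b- DCs (0.87) or replicate 3 of CD103-CD11b+ DCs (0.83), and that for Xaf1 without replicate 1 of CD103+CD11b- DCs (0.96) or replicate 1 (0.94) or 3 (0.96) of CD103-CD11b+ DCs. Both were also lost without the acinar-rich arrays (0.88 and 0.99). Ifi205 was the lower member (-2.63, SE 0.20, adjusted p = 5.9e-06), and Oasl1 was also called lower without replicate 1 of CD103+CD11b- DCs (-1.06) or replicate 3 of CD103-CD11b+ DCs (-1.01). Means over the 12 mϕ markers were 6.46 to 6.92 in CD103-CD11b+ DCs, against 4.68 to 4.79 in CD103+CD11b- DCs, and their part in these differences was not tested. Without the acinar-rich arrays, Ifit3 kept a difference of 1.75 but had an adjusted p of 0.0168.

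Few members were called between the CD11b+ subsets, although 28 of 35 had a CD103+CD11b+ minus CD103-CD11b+ difference below 0, called or not. The share of all genes below 0 is not given, but their median difference was -0.01. No member was called higher in CD103+CD11b+ than in CD103-CD11b+ DCs, against 0.231% of all genes. At an unadjusted p under 0.05 without a limit on size, 18 members differed in either direction. No share of all genes is given for that looser rule, so the 18 cannot be set against the 0.231%. Trim25 was called higher when replicate 3 of CD103+CD11b+ DCs (1.01) or replicate 2 of CD103-CD11b+ DCs (1.03) was left out. Samd9l (-1.57, SE 0.22, adjusted p = 0.00303) and Ifi205 (-1.25, SE 0.20, adjusted p = 0.00758) were lower in CD103+CD11b+ DCs, against 0.306% of all genes. Neither call held without replicate 1 or without replicate 3 of CD103-CD11b+ DCs, or without the acinar-rich arrays, where Samd9l had -1.49 and Ifi205 -1.38. Samd9l was also lost without replicate 2 of CD103+CD11b+ DCs, and Ifi205 without replicate 1 or 3 of CD103+CD11b+ DCs or replicate 2 of CD103-CD11b+ DCs. The methods' t-test, with Benjamini-Hochberg adjustment, called 0 members here, with no share of all genes given for it. The members' median difference was -0.25, against -0.01 over all genes.

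CD103-CD11b- DCs had 4 members higher than CD103+CD11b- DCs, against 1.61% of all genes, and 1 lower, against 1.05%. Isg20 (1.78, SE 0.17, adjusted p = 5.4e-06), Gbp7 (1.32, SE 0.15), Gbp3 (1.29, SE 0.16) and Rtp4 (1.05, SE 0.21, adjusted p = 0.00456) were the higher ones and Oasl1 (-1.47, SE 0.23, adjusted p = 0.00057) the lower one. The call for Rtp4 was lost without replicate 1 or 3 of either population (differences of 0.81 to 1.09), and that for Oasl1 without the acinar-rich arrays (-1.52, adjusted p = 0.0262). Means over the 9 plasmacytoid DC markers were 7.49 to 7.71 in CD103-CD11b- DCs and 6.06 to 6.13 in CD103+CD11b- DCs. In the same order, the B and plasma cell markers had 8.68 to 9.37 and 6.74 to 6.89. The markers of type 1 conventional DCs had 8.44 to 8.98 and 10.51 to 10.80. The part of these markers in the differences above was not tested.

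CD103-CD11b- DCs were also compared with both CD11b+ subsets. Markers of type 1 conventional DCs averaged 8.44 to 8.98 in CD103-CD11b- DCs and 6.14 to 6.86 in the CD11b+ subsets, and their part was not tested. Against CD103-CD11b+ DCs 1 member was higher (0.356% of all genes) and 8 were lower (0.451%). Ifi205 was the higher one (1.75, SE 0.22, adjusted p = 0.00028). The lower ones were Rtp4 (-2.11, SE 0.21, adjusted p = 4.7e-05), Oas1a (-1.65, SE 0.22), Ifit2 (-1.45, SE 0.20), Ifit3 (-1.42, SE 0.24), Oasl2 (-1.42, SE 0.19), Oas2 (-1.17, SE 0.22), Gbp7 (-1.03, SE 0.15) and Gbp3 (-1.0, SE 0.16). The count of 9 called members dropped to 5 without replicate 3 of CD103-CD11b+ DCs or without replicate 2 of CD103-CD11b- DCs, and to 2 without the acinar-rich arrays. Gbp3, Ifit3, Oas2 and Gbp7 were the calls lost in the first pair of these settings, and in the last only Rtp4 and Ifi205 passed. Gbp3, Ifit3 and Oas2 were also lost without replicate 1 of CD103-CD11b+ DCs.

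Against CD103+CD11b+ DCs, CD103-CD11b- DCs had 2 members higher (0.908% of all genes) and 6 lower (1.02%). Ifi205 (3.0, SE 0.22, adjusted p = 9e-07) and Bst2 (1.02, SE 0.20, adjusted p = 0.0041) were higher. Bst2 is one of the plasmacytoid DC markers, and its call was lost without replicate 2 or 3 of either population (0.89 to 1.04). The lower ones were Ifit3 (-1.55, SE 0.24), Gbp7 (-1.45, SE 0.15), Trim25 (-1.44, SE 0.18), Oas1a (-1.40, SE 0.22), Rtp4 (-1.36, SE 0.21) and Oasl2 (-1.16, SE 0.19). Of the 8 called members 4 passed without the acinar-rich arrays, where Ifit3, Oas1a, Oasl2 and Bst2 had adjusted p between 0.0114 and 0.0978. The median difference of the members was -0.51 against CD103-CD11b+ DCs and -0.18 against CD103+CD11b+ DCs. Over all genes the medians were -0.02 and -0.01. In the second comparison 10 of 35 members had a difference above 0, called or not. Of the 10 antiviral effectors 6 were above 0, with 1 called higher and 1 called lower. The share of all genes above 0 is not given, so these counts cannot be set against it.

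**Figure D3:**
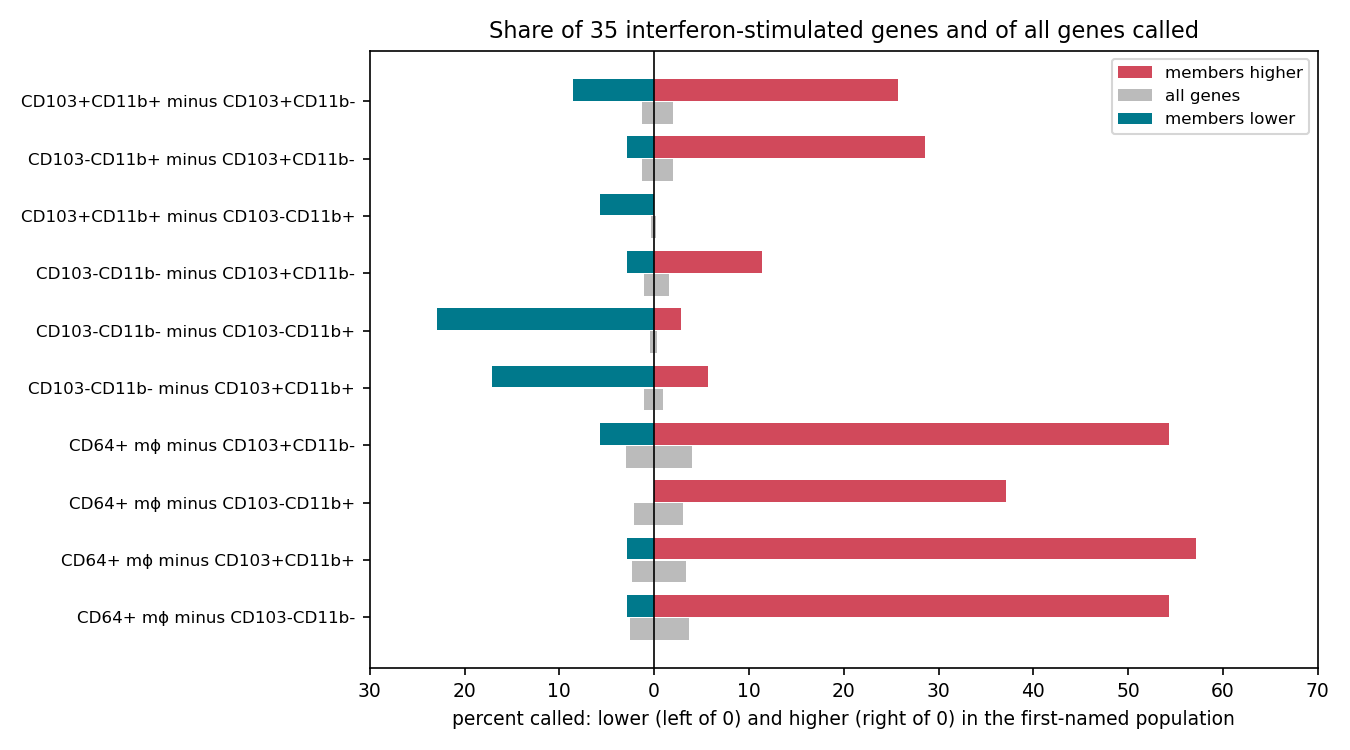
Percent of the 35 ISGs (coloured bars) and of all 19938 genes (grey bars) called higher (right of 0) or lower (left of 0) in the first-named population of each comparison. The coloured bars are longest for the 4 comparisons of CD64+ mϕ with DCs, where 13 to 20 members were higher, and shortest for CD103+CD11b+ minus CD103-CD11b+ DCs, where 2 members were called.

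CD64+ mϕ had higher signals of many ISGs than each DC subset. They exceeded CD103+CD11b- DCs in 19 members (4.04% of all genes were higher) and were lower in Ifi205 and Ifi35 (2.99% of all genes). They exceeded CD103-CD11b+ DCs in 13 members (3.02%) and had 0 lower (2.16%). They exceeded CD103+CD11b+ DCs in 20 members (3.34%) and were lower in Trim25 (2.34%), and exceeded CD103-CD11b- DCs in 19 members (3.73%) and were lower in Ifi205 (2.57%). In this order (CD103+CD11b-, CD103-CD11b+, then CD103+CD11b+ and last CD103-CD11b- DCs) the median differences of the members were 1.25, 0.83, 1.09 and 1.15, against -0.02 to 0.03 over all genes. Against CD103-CD11b+ DCs, where 0 members were lower, the unadjusted p was under 0.05 for 29 members in either direction. The methods' t-test with Benjamini-Hochberg adjustment called 0 members there, higher or lower. No share of all genes is given for either rule, so these counts cannot be set against the percentages above.

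Rtp4 had the largest of these differences against CD103+CD11b- DCs (4.93, SE 0.21, adjusted p = 2e-10), where its signals were below the array medians, and against CD103-CD11b- DCs (3.88, SE 0.21, adjusted p = 4.7e-09). Against CD103-CD11b+ DCs it was Gbp7 (2.20, SE 0.15, adjusted p = 6.4e-08), and against CD103+CD11b+ DCs it was Oas2 (2.80, SE 0.22, adjusted p = 1.7e-07). Ifit1, Ifit2, Ifit3, Oas1a, Oas2, Oasl2, Zbp1, Gbp3, Gbp5, Gbp7 and Rtp4 were called higher in CD64+ mϕ in all 4 comparisons. Zbp1, for example, was higher by 2.26, 1.23, 1.63 and 1.80 than in the DC subsets in that same order. Against CD103-CD11b+ DCs some of these calls rested on single arrays. Oas1a (1.01) was lost without replicate 1 or 2 of CD103-CD11b+ DCs or replicate 1 of CD64+ mϕ (0.79 to 0.99), Oasl2 (1.12) without replicate 1 of CD64+ mϕ (0.99) and Gbp5 (1.53) without replicate 2 of CD103-CD11b+ DCs (1.38, adjusted p = 0.0103). Rsad2 was called in 3 of the 4 (2.44, 1.91 and 2.08, without CD103-CD11b+ DCs), each with an SE of 0.39. Leaving out the acinar-rich arrays removed its calls against CD103+CD11b+ DCs (1.38) and CD103-CD11b- DCs (1.47), and also those of Oasl1 against CD103-CD11b+ DCs (1.27), of Parp14 against CD103+CD11b+ DCs (0.91) and of Xaf1 against CD103-CD11b- DCs (0.90). Single arrays also removed 3 of these calls. Rsad2 against CD103+CD11b+ DCs was lost without replicate 3 of that subset (1.83, adjusted p = 0.0115), and Parp14 without replicate 2 of CD64+ mϕ (0.95). Xaf1 was lost without replicate 1 of CD64+ mϕ (0.96) or replicate 2 of CD103-CD11b- DCs (0.95). Some calls of Bst2, Oas3 and Tor3a in CD64+ mϕ were likewise lost without 1 array. The lower signal of Trim25 in CD64+ mϕ than in CD103+CD11b+ DCs (-1.15) was not called without replicate 3 of CD64+ mϕ (-0.95). Mx2 was called only against CD103+CD11b+ DCs (1.09, adjusted p = 0.00889), and this was lost without replicate 1 or 2 of CD64+ mϕ (0.99 and 0.83), without any 1 array of CD103+CD11b+ DCs (0.98 to 1.20), without the acinar-rich arrays (0.82) and with a replicate block (adjusted p = 0.0103).

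It was further asked whether the difference made by CD103 depended on CD11b, by the interaction of both markers among the 4 DC subsets, that is, CD103+ minus CD103- within CD11b+ DCs minus the same within CD11b- DCs. The interaction was positive for 3 members (1.08% of all genes) and negative for 2 (0.893%). Gbp7 had 0.41 within CD11b+ DCs and -1.32 within CD11b- DCs (interaction 1.74, SE 0.21, adjusted p = 1.9e-04). Isg20 had -0.11 and -1.78 in the same order (1.68, SE 0.24, adjusted p = 6.4e-04), and Gbp3 had -0.07 and -1.29 (1.22, SE 0.23, adjusted p = 0.00501). The negative ones were Ifi205, with -1.25 and 0.88 (-2.13, SE 0.31, adjusted p = 6.5e-04), and Oasl1, with -0.51 and 1.47 (-1.98, SE 0.33, adjusted p = 0.00206). Trim30a had an interaction of -0.99 (SE 0.13, adjusted p = 3.0e-04), just inside the limit of 1. The call for Gbp3 was lost when any array of the other 3 DC subsets, or replicate 3 of CD103+CD11b- DCs, was left out (1.16 to 1.25), and that for Oasl1 was lost without the acinar-rich arrays (-1.98, adjusted p = 0.0716).

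Gene groups were also followed array by array. The mean log2 signal over the 35 members was 8.15, 7.92 and 7.83 in CD64+ mϕ, 6.71, 6.52 and 6.78 in the CD103-CD11b- subset, 6.90, 6.87 and 6.94 in the CD103+CD11b+ subset, 7.14, 6.99 and 7.30 in the CD103-CD11b+ subset and 6.55, 6.55 and 6.52 in the CD103+CD11b- subset. CD103-CD11b- DCs overlapped CD103+CD11b- DCs and the other populations were separate. The OAS family had 7.99, 7.94 and 7.69 in CD64+ mϕ, against DC arrays of 5.46 to 6.80. In the IFIT and IFI group mϕ had 7.72 to 8.23, against DC arrays of 5.60 to 6.87. In the GBP and IRG group mϕ had 8.10 to 8.77, against DC arrays of 5.75 to 7.32. In the STAT2 and PARP group mϕ had 7.96 to 8.24, and the DC arrays lay between 7.23 and 7.78.

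Arrays of 1 population differed from each other over many members at once. Replicate 2 of CD103-CD11b+ DCs was above the mean of its population for 3 of 35 members (44.5% of all genes) and replicate 3 for 29 of 35 (65.6% of all genes). In CD103-CD11b- DCs the same counts were 7 for replicate 2 (43.8% of all genes) and 26 for replicate 3 (58.2%), and in CD64+ mϕ 28 members were above the mean in replicate 1 (60.6%). Within its population, the acinar signal was highest in replicate 2 of CD103-CD11b- DCs (8.43), an array with low ISG levels, and in replicate 3 of CD103-CD11b+ DCs (7.37), an array with high ISG levels, and its part was not tested.

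**Figure D4:**
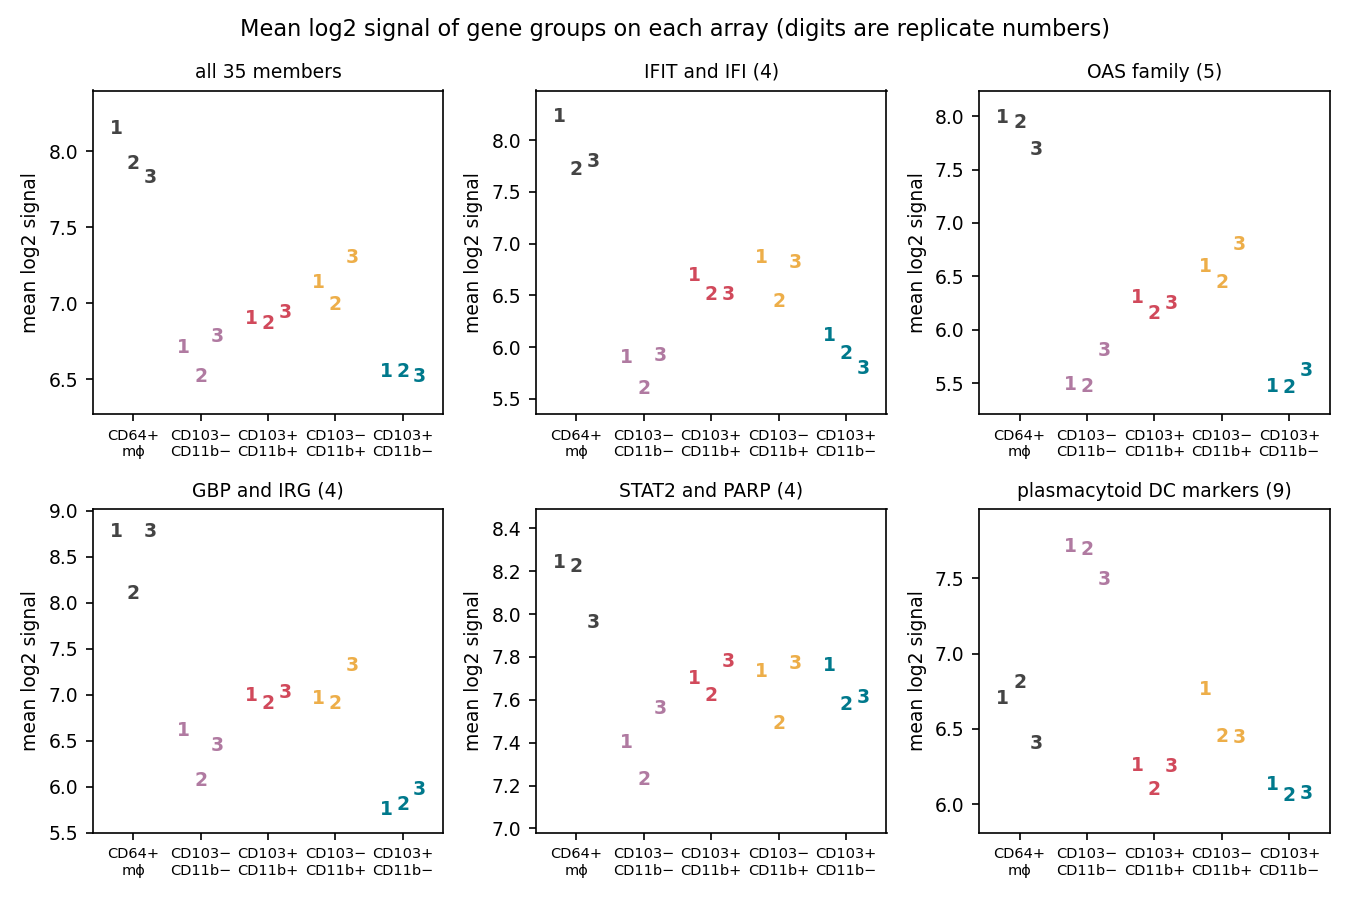
Mean log2 signal of the genes of 6 groups on each array, with the digit giving the replicate and the number of measured genes in brackets, each panel on its own axis. CD64+ mϕ are highest for all 5 ISG panels, and CD103-CD11b- DCs are highest for the plasmacytoid DC markers (7.49 to 7.71).

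Over the 15 arrays, the 595 pairs of members had a median Pearson r of 0.48, with 136 pairs above 0.8 and 44 below -0.5. Gbp3 and Gbp7 (0.98), Oas1a and Oasl2 (0.98) and Rtp4 and Oas1a (0.97) were among the most alike, and Ifi205 and Gbp7 (-0.82) among the most opposed. These points share their population and their array, and when each array was taken as its deviation from the population mean the median r was 0.22. By these deviations r was 0.39 for Gbp3 and Gbp7, 0.53 for Oas1a and Oasl2 and 0.34 for Rtp4 and Oas1a. For Ifi205 and Gbp7 it was 0.07, so they were not opposed within populations.

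Of 38 genes of the interferon pathway (interferons, receptors, kinases, transcription factors and the sensors upstream) 35 were measured and 15 varied over the populations, against 10.7% of all genes. The population means of the measured interferon genes Ifna2, Ifna4, Ifnb1, Ifng, Ifne, Ifnk and Ifnl2 ranged over only 0.06 to 0.67. Ifnb1 lay between 3.20 and 4.11 on all arrays, Ifna4 between 3.48 and 3.84 and Ifng between 4.32 and 4.80, all near or below the array medians, and Ifnl2 between 6.51 and 7.26. Against CD103+CD11b- DCs, CD64+ mϕ had 8 of the 35 pathway genes higher (4.04% of all genes) and 4 lower (2.99%). CD103+CD11b+ DCs had 1 higher (1.95%) and 2 lower (1.32%), and CD103-CD11b+ DCs 2 higher (2.02%) and 1 lower (1.3%).

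The pathway genes with the widest ranges were sensors and signalling proteins. Tlr7 had log2 signals of 8.77, 8.11 and 8.41 in CD64+ mϕ, 4.06, 3.51 and 3.85 in the CD103-CD11b- subset, 3.65, 3.63 and 3.44 in the CD103+CD11b+ subset, 3.79, 3.84 and 3.75 in the CD103-CD11b+ subset and 3.46, 3.51 and 3.56 in the CD103+CD11b- subset. Tlr7, the endosomal receptor for single-stranded RNA, was above the array medians only in CD64+ mϕ. Tlr3 measured 7.43, 6.53 and 7.70 in CD64+ mϕ, 9.57, 8.75 and 9.64 in the CD103-CD11b- subset, 6.62, 6.85 and 7.46 in the CD103+CD11b+ subset, 6.26, 6.58 and 6.64 in the CD103-CD11b+ subset and 10.77, 10.64 and 10.72 in the CD103+CD11b- subset. Tlr3, the receptor for double-stranded RNA and itself a marker of type 1 conventional DCs, was highest in CD103+CD11b- DCs. Ddx58 had log2 signals of 8.53, 8.33 and 8.28 in CD64+ mϕ, 7.31, 7.81 and 7.21 in the CD103-CD11b- subset, 7.59, 7.52 and 7.50 in the CD103+CD11b+ subset, 7.63, 7.29 and 7.50 in the CD103-CD11b+ subset and 5.57, 5.58 and 5.65 in the CD103+CD11b- subset. Ddx58 encodes RIG-I, which starts interferon production on viral RNA, and CD103+CD11b- DCs were below all other arrays. Socs3 measured 9.44, 9.45 and 9.97 in CD64+ mϕ, 6.81, 7.17 and 7.18 in the CD103-CD11b- subset, 7.73, 7.72 and 7.21 in the CD103+CD11b+ subset, 8.69, 8.76 and 8.81 in the CD103-CD11b+ subset and 6.64, 7.18 and 6.89 in the CD103+CD11b- subset. Socs3, an inhibitor of cytokine signalling through JAK kinases, was highest in mϕ and next in CD103-CD11b+ DCs.

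Ikbke had log2 signals of 7.38, 8.14 and 7.35 in CD64+ mϕ, 5.02, 5.26 and 5.26 in the CD103-CD11b- subset, 5.23, 4.91 and 5.14 in the CD103+CD11b+ subset, 5.37, 5.22 and 5.47 in the CD103-CD11b+ subset and 5.01, 5.03 and 4.99 in the CD103+CD11b- subset. Ikbke, the kinase IKKε that activates IRF3 and IRF7, was higher in CD64+ mϕ than in each DC subset (differences of 2.27 to 2.61). Jak2 measured 7.43, 7.66 and 7.86 in CD64+ mϕ, 9.73, 9.86 and 9.96 in the CD103-CD11b- subset, 9.88, 10.01 and 9.89 in the CD103+CD11b+ subset, 9.77, 9.81 and 9.73 in the CD103-CD11b+ subset and 10.01, 9.78 and 9.77 in the CD103+CD11b- subset. Jak2, which serves the receptor for interferon-γ, was lower in CD64+ mϕ than in each DC subset (differences of -2.28 to -2.12). Tlr9 had log2 signals of 10.11, 9.27 and 9.79 in CD64+ mϕ, 8.33, 7.84 and 8.23 in the CD103-CD11b- subset, 7.32, 7.39 and 7.92 in the CD103+CD11b+ subset, 7.95, 8.17 and 8.42 in the CD103-CD11b+ subset and 8.40, 8.27 and 8.65 in the CD103+CD11b- subset. Irf7 measured 8.85, 8.52 and 7.26 in CD64+ mϕ, 7.14, 7.43 and 7.34 in the CD103-CD11b- subset, 6.27, 6.11 and 6.16 in the CD103+CD11b+ subset, 7.18, 6.96 and 7.19 in the CD103-CD11b+ subset and 7.45, 6.86 and 7.39 in the CD103+CD11b- subset. Irf7, the factor that amplifies type I interferon production and is itself an ISG, was lowest in CD103+CD11b+ DCs (-1.06 against CD103+CD11b- DCs, SE 0.14, adjusted p = 0.0004), and replicate 3 of CD64+ mϕ fell within the range of the DCs for Irf7.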

How the data were processed

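RNA of 5 sorted populations was measured on 15 arrays. The deposited log2 signals had been made by the authors with RMA, which corrects background, summarizes the probes of each probeset and quantile-normalizes the arrays, so any difference in total RNA between populations is removed. No count or sequencing depth applies, and 3 arrays a population limit the precision.

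Of 35556 probesets, 21789 carried 1 gene symbol in the annotation of the array, and for genes with several the probeset with the highest mean was kept, leaving 19938 genes. No member had more than 1. Moderated tests used limma 3.58.1 in R 4.3.3, with population as the only term, and scripts were tested on simulated data. Alternatives were another probeset rule, cyclic loess, a limit on dim genes, an intensity trend, array weights, another threshold, treat (a test against the log2 threshold), a t-test, a replicate block, other arrays in the fit, each array left out, and, chosen after seeing the data, the most acinar-rich array of each population left out, as was the interaction.

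Members and lists were chosen with earlier results of these data known. Values per array are given for the 3 members of each role group with the widest range of population means and for the 8 such pathway genes. Those of Oasl1, Samd9l, Usp18 and Oas3 were added after their values were seen. Promoter motifs and figures used Python 3.11.15, pandas 2.3.3 and matplotlib 3.10.9.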

Additional observations from a re-analysis of the deposited data

Results flagged for a closer look

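The difference made by CD103 was not the same in CD11b+ and CD11b- DCs for 5 members, by a test of the interaction itself (limma, Benjamini-Hochberg over all genes). The interaction was 1.74 for Gbp7, 1.68 for Isg20 and 1.22 for Gbp3, with differences of -1.32, -1.78 and -1.29 among CD11b- DCs, and -1.98 for Oasl1 and -2.13 for Ifi205, with CD103+ minus CD103- differences of -0.51 and -1.25 among CD11b+ DCs and of 1.47 and 0.88 among CD11b- DCs. Means over the plasmacytoid DC markers were 7.49 to 7.71 in CD103-CD11b- DCs, against 6.06 to 6.81 on all other arrays. Over the B and plasma cell markers they were 8.68 to 9.37, against 6.74 to 8.31 in the other DCs. Over the markers of type 1 conventional DCs they were 8.44 to 8.98, between the CD11b+ subsets (6.14 to 6.86) and CD103+CD11b- DCs (10.51 to 10.80). The part of these markers in the interactions was not tested.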

How the results depend on the processing

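None of the 155 main calls of a member changed sign under the alternatives run for it, and members that were not called were not followed. Shares of all genes called are given for the main setting only. The counts under other settings therefore cannot be set against all genes, and a lower count is not a result about the members. Treat gave 7 called members for CD103-CD11b+ minus CD103+CD11b- DCs, 0 for CD103+CD11b+ minus CD103-CD11b+ DCs, and 1, 0 and 1 for CD103-CD11b- DCs minus the CD103+CD11b-, the CD103-CD11b+ and the CD103+CD11b+ subsets. It gave 5, 7 and 13 for CD64+ mϕ minus the CD103-CD11b+, the CD103+CD11b+ and the CD103-CD11b- subsets, and 0 for the interaction. By construction treat asks for a difference past the threshold itself. The methods' t-test with Benjamini-Hochberg adjustment gave 4 and 1 for the CD103+CD11b+ and CD103-CD11b+ subsets minus CD103+CD11b- DCs, 0 between them and 0 for all 3 comparisons of CD103-CD11b- with other DCs. For CD64+ mϕ it gave 8 against the CD103+CD11b- subset, 0 against the CD103-CD11b+ subset, 2 against the CD103+CD11b+ subset and 0 against the CD103-CD11b- subset, and it does not share the spread between genes. Array weights gave 1 between the CD11b+ subsets. Without the 5 acinar-rich arrays, which leaves 2 per population, there were 0 between the CD11b+ subsets, and 2 and 4 for CD103-CD11b- DCs minus the CD103-CD11b+ and the CD103+CD11b+ subsets.

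With single arrays left out, CD103+CD11b+ minus CD103-CD11b+ DCs had 0 to 2 called members and CD103-CD11b- minus CD103-CD11b+ DCs had 5 to 8. The causes were not tested. Every other count of called members, both directions together, stayed within 1.5 times its main value. By direction, leaving out 1 array gave 1 higher member, Trim25, in place of 0 between the CD11b+ subsets, 2 lower in place of 1 for CD103-CD11b+ minus CD103+CD11b- DCs, 1 higher in place of 2 for CD103-CD11b- minus CD103+CD11b+ DCs, and for CD64+ mϕ 1 lower in place of 2 against CD103+CD11b- DCs and 0 in place of 1 against CD103+CD11b+ DCs. Deviations of same-numbered arrays of different populations had r above 0.1 in 18 of 30 pairs (mean 0.12, against -0.06 for other numbers). As this fell short of every pair, the main fits did not pair arrays by number, but that rule cannot show them to be unrelated. Over 15 immediate early and heat shock genes, replicate 2 had the highest mean within every population (10.91 in CD64+ mϕ, 10.15 to 10.70 in the DC subsets). Acinar signal was also highest on replicate 2, except in CD103-CD11b+ DCs. Whether same-numbered arrays shared a preparation was not tested. A replicate block kept 154 of 155 calls, losing Mx2 in CD64+ mϕ minus CD103+CD11b+ DCs. Probesets that near-identical copies may share limit what can be read from Oas1a, Ifit3, the Gbp genes, Trim30a and Ifi205. Signals near or below the array medians limit Cmpk2, Oas3 and Ifit1, and Rtp4, Gbp7 and Oas2 in CD103+CD11b- DCs. Mx2 lay below them on 2 of 3 arrays of CD103-CD11b- DCs and 1 of 3 of CD103+CD11b+ DCs, and Ifit2 on 1 of 3 of CD103-CD11b- DCs.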
